A study of Homo sapiens with 6 samples.

Results

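Prostaglandins are made from arachidonic acid in a chain of enzymes and act through receptors on the cell surface, and 9 genes of this system were followed after TAZ knockdown in HFL-1, a human cell line of lung fibroblasts from a fetus. They were PLA2G4A, PTGS1, PTGS2, PTGES, PTGIS, PTGER2, PTGER4, PTGFR and HPGD, chosen by symbol, and each of the 9 had an entry among the 23355 genes of the table. The table lists symbols alone, and gene identifiers and positions were taken from the GENCODE annotation on GRCh37. The cells were transfected with siNTC, a control siRNA, or with siTAZ #1 or siTAZ #2, which are separate siRNAs against the gene of TAZ. RNA was taken 48 h after transfection, with 2 biological replicates per group and 6 libraries in all, each sequenced to between 15648055 and 32078188 counts. All groups came from the same cell line and received the same transfection reagent. The replicate libraries are named as biological replicates with nothing said about separate cultures or days, so that p-values measure the spread between these samples only. In RNA from whole cultures, fewer cells that express a gene and less RNA per cell cannot be told apart.

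Cytosolic phospholipase A2 (PLA2G4A) releases arachidonic acid from membrane lipids, and the cyclooxygenases PTGS1 and PTGS2 turn it into prostaglandin H2, from which PTGES makes prostaglandin E2 and PTGIS makes prostacyclin. Prostaglandin E2 acts on lung fibroblasts mainly through the receptors PTGER2 and PTGER4, which raise cAMP, and is known to restrain their proliferation, migration and collagen synthesis, while prostaglandin F2 alpha acts through PTGFR and HPGD breaks prostaglandins down. PTGS1 is usually described as the constitutive cyclooxygenase and PTGS2 as the one induced by cytokines.

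Promoter windows are shown for the 4 members that lead to prostaglandin E2, because their transcripts moved in different ways after knockdown. Each window holds the 250 bases before a transcription start in RefSeq on GRCh38.p14, read 5′ to 3′ on the strand of the gene, and 8 of the 9 members matched the promoter table, with 10 starts in all. Capitals mark matches, on either strand, to 4 short motifs. These were the core promoter box TATAAA, the letters TGACG from the cAMP response element, the letters GGAATG that TEAD factors (the DNA-binding partners of TAZ) recognise, and the loose NF-kB site GGGNNNNNCC. The windows lie at chr1:186828699-186828948 on the plus strand for PLA2G4A, at chr1:186680424-186680673 on the minus strand for PTGS2, at chr9:122370283-122370532 and chr9:122375052-122375301 on the plus strand for both starts of PTGS1, and at chr9:129753043-129753292 on the minus strand for PTGES.
PLA2G4A: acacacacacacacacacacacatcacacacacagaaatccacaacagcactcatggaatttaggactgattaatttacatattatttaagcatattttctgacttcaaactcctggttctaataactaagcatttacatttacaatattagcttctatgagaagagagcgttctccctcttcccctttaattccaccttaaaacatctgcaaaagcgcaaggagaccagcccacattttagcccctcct
PTGS2: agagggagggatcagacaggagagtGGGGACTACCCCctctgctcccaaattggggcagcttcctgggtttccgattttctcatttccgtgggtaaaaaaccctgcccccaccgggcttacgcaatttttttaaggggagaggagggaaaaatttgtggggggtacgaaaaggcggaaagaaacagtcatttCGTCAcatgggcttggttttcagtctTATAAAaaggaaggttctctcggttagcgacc
PTGS1, start 1: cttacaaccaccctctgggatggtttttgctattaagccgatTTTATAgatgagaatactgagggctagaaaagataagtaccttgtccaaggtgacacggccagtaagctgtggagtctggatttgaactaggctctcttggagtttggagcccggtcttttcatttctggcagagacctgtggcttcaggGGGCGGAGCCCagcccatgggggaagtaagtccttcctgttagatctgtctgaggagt
PTGS1, start 2: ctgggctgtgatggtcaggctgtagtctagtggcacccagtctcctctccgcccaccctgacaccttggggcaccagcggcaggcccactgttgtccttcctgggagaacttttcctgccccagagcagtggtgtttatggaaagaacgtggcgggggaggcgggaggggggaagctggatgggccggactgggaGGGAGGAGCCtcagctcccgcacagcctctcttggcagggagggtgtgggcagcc
PTGES: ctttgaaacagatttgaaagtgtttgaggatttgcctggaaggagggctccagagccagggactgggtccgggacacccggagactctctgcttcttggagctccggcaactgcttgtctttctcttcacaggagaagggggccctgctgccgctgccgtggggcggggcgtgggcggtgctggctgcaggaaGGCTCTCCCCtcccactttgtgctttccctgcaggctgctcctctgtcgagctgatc

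The PTGS2 window held TATAAA from -32 to -27, the reverse of TGACG from -58 to -54, and overlapping NF-kB matches from -225 to -214 relative to the start. In PTGS1 the first window held a TATAAA match on the opposite strand, from -208 to -203, and an NF-kB match from -58 to -48, and the second held an NF-kB match from -55 to -46 and no TATAAA. PTGES had an NF-kB match from -57 to -48, and the PLA2G4A window had no match to any of the 4. GC content was 38.8% in the PLA2G4A window, 50.4% in that of PTGS2, 49.6% and 65.2% in those of PTGS1, and 61.2% in that of PTGES. The letters GGAATG were found in none of the 10 windows of the members, and in 11.9% of all 35116 promoter windows of this length. TATAAA was found in 10.7% of all windows, TGACG in 21.2% and the NF-kB letters, which can overlap themselves, in 54.4%, so that matches of the last kind are common. A match describes the letters of a window and does not show that a factor binds there.

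The targeted gene was lower in every knockdown library. WWTR1, the gene of TAZ (ENSG00000018408, chromosome 3, 149235022 to 149454501), was at 132 and 131 CPM (counts scaled to a fixed library size after TMM normalization) in the siNTC libraries, 26.4 and 28.4 CPM with siTAZ #1, and 46.1 and 43.1 CPM with siTAZ #2. The groups did not overlap, and WWTR1 fell by 2.26 on the log2 scale with siTAZ #1 (SE 0.10, FDR 0.00062) and fell by 1.56 with siTAZ #2 (SE 0.10, FDR 0.00068). It was lower with siTAZ #1 than with siTAZ #2, with a log2 difference of -0.70 (SE 0.10, FDR 0.005), a call lost by the exact test on 4 libraries (FDR 0.27). Unless another test or setting is named, FDRs are from the edgeR quasi-likelihood test with Benjamini-Hochberg adjustment over the 14053 genes that passed the filter on low counts. The threshold was 0.05 throughout. All 10 lung fibroblast markers were present in every library, at 28.9 CPM or more, and their summed level was 35300 to 35400 CPM with siNTC, 23900 to 24900 with siTAZ #1 and 27400 to 29200 with siTAZ #2. Markers of other cells were scarce, with 6 of 8 epithelial, 3 of 6 endothelial and 7 of 8 leukocyte markers under 1 CPM in every library. The summed endothelial markers were at 42.5 to 42.8 CPM with siNTC, 46.4 to 48.1 with siTAZ #1 and 27.2 to 32.6 with siTAZ #2, and the summed leukocyte markers, chiefly CD68, at 74.4 to 75.4, 69.3 to 75.9 and 38.3 to 49.3 CPM. The summed epithelial markers were at 3.8 to 4.92, 3.74 to 5.55 and 4.59 to 5.8 CPM, and the part of these marker levels in the results below was not tested. In siTAZ #1 replicate 2, genes from RANGAP1 on chromosome 22 to the end of Y held 0.248% of the counts, against 3.58% to 3.75% in the other libraries, and no member lies there. The 577 of these genes that were tested stayed in the main fit. Without them, PTGFR with siTAZ #2 passed the threshold (log2 -0.71, FDR 0.035, against 0.085 in the main fit). The difference of PTGER2 between the siRNAs passed as well (log2 0.39, FDR 0.04, against 0.054).

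The members did not move in 1 direction. With siTAZ #1, PLA2G4A, PTGS1 and PTGS2 were higher, and PTGES and PTGIS were lower, which made 5 of the 8 members tested, against 20.6% of all genes tested (10.8% higher and 9.78% lower). With siTAZ #2, PTGS1 was again higher and PTGES again lower, but PTGS2 and PTGER2 were also lower, which made 4 of 8, against 28.5% of all genes (14.1% higher and 14.4% lower). HPGD did not pass the filter on low counts. The median log2 fold change over the 8 members was 0.65 with siTAZ #1 and -0.65 with siTAZ #2, against 0.02 and 0.01 over all genes tested. Compared directly, 5 of the 8 members differed between the siRNAs, with PTGS2, PTGER4, PTGFR and PLA2G4A higher and PTGS1 lower with siTAZ #1, against 28.6% of all genes (15.2% higher and 13.4% lower). Both comparisons with siNTC use the same control libraries.

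**Figure D1:**
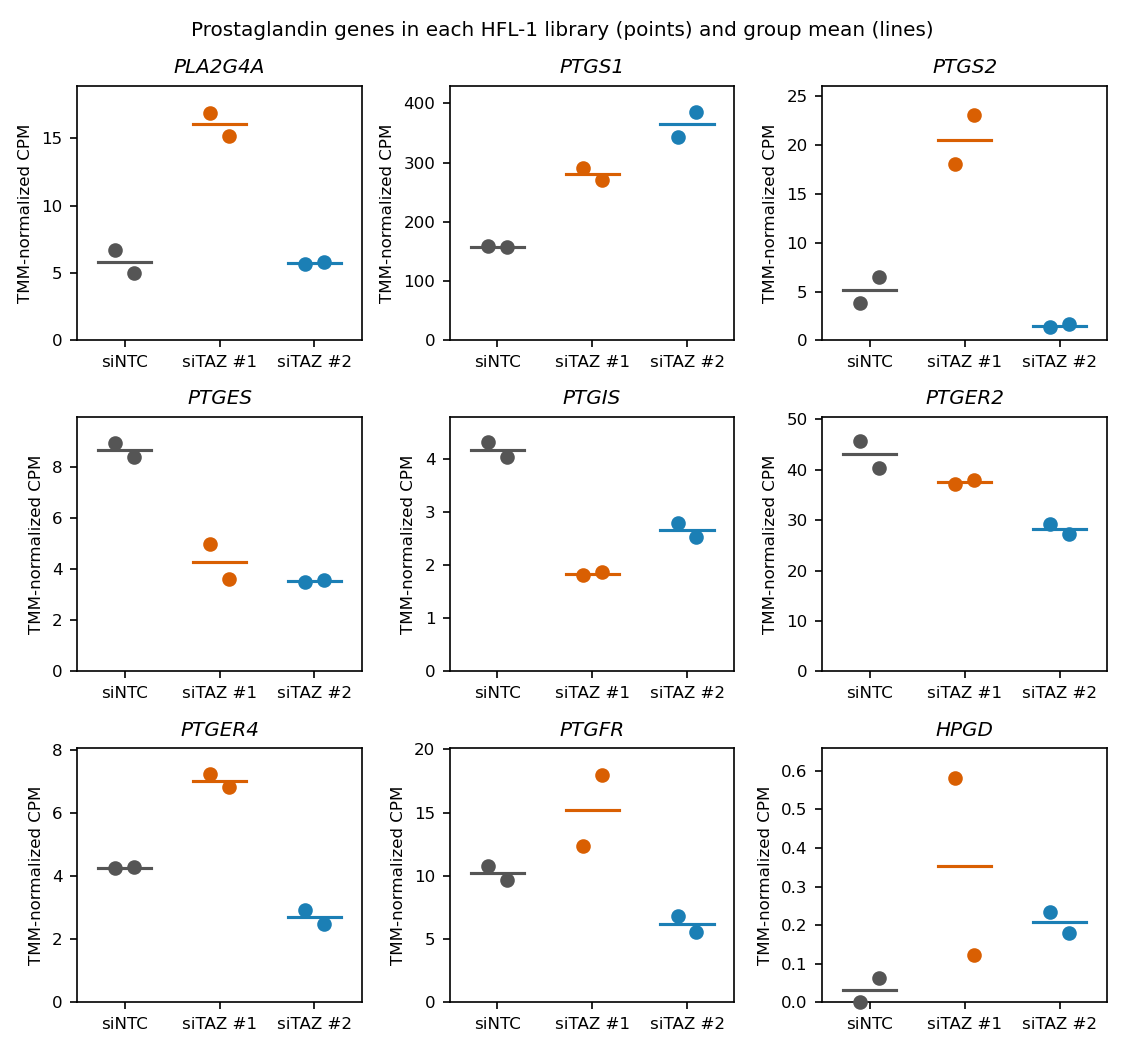
TMM-normalized CPM (vertical axes, each starting at 0) of the 9 prostaglandin genes, with a point for each library and a line at each group's mean. PTGS1 was higher in all 4 knockdown libraries than in siNTC and PTGES was lower in all 4, while PTGS2 was highest with siTAZ #1 (18.0 and 23.0 CPM) and lowest with siTAZ #2 (1.40 and 1.63 CPM).

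The question for the phospholipase was whether the enzyme that supplies arachidonic acid changed with loss of TAZ, and it rose with 1 siRNA of the pair. PLA2G4A (ENSG00000116711, chromosome 1, 186798081 to 186958113, plus strand) was at 6.72 and 4.99 CPM in siNTC, 16.9 and 15.2 CPM with siTAZ #1, and 5.70 and 5.80 CPM with siTAZ #2. Both siTAZ #1 libraries lay above all the others, and the siTAZ #2 libraries lay within the range of siNTC. PLA2G4A rose 2.74-fold with siTAZ #1 (log2 1.45, SE 0.22, FDR 0.0089). With siTAZ #2 its log2 fold change was -0.03 (SE 0.22, FDR 0.95), with a 95% interval of -0.56 to 0.51. The siRNAs differed, with PLA2G4A 2.79-fold higher with siTAZ #1 than with siTAZ #2 (log2 1.48, SE 0.22, FDR 0.0058). The rise with siTAZ #1 rested in part on a control library, since without siNTC replicate 2 the log2 fold change was 1.25 (FDR 0.069). The difference between the siRNAs kept an FDR of 0.047 or less under all 16 alternative settings.

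The cyclooxygenases parted ways. PTGS1 (ENSG00000095303, chromosome 9, 125132809 to 125157982, plus strand) was the highest member in every group and rose with both siRNAs. Its level was 159 and 157 CPM in siNTC, 291 and 271 CPM with siTAZ #1, and 344 and 386 CPM with siTAZ #2. All 4 knockdown libraries were higher than both controls, the siTAZ #2 libraries more so, and the groups did not overlap. PTGS1 rose 1.77-fold with siTAZ #1 (log2 0.83, SE 0.09, FDR 0.0035) and 2.30-fold with siTAZ #2 (log2 1.20, SE 0.09, FDR 0.00092). The siRNAs differed by -0.38 on the log2 scale (SE 0.09, FDR 0.026), siTAZ #1 being the lower. The rise with siTAZ #2 was called under all 16 alternative settings. The rise with siTAZ #1 was not called without siNTC replicate 1 (log2 0.83, FDR 0.052) or without siNTC replicate 2 (log2 0.81, FDR 0.056), nor by the exact test on 4 libraries (log2 0.81, FDR 0.066). The difference between the siRNAs was lost under 6 of the 16 settings, including the loss of siNTC replicate 1 or 2 (FDR 0.08 each) and of siTAZ #2 replicate 2 (log2 -0.28, FDR 0.14).

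PTGS2 (ENSG00000073756, chromosome 1, 186640923 to 186650054, minus strand), the inducible cyclooxygenase, moved in opposite directions with the siRNAs. It was at 3.87 and 6.44 CPM in siNTC, 18.0 and 23.0 CPM with siTAZ #1, and 1.40 and 1.63 CPM with siTAZ #2. These values came from 61 and 102 counts, 279 and 750 counts, and 30 and 27 counts. Each siTAZ #1 library was above both controls and each siTAZ #2 library was below both. PTGS2 rose 3.98-fold with siTAZ #1 (log2 1.99, SE 0.30, FDR 0.0092) and fell by 1.76 on the log2 scale with siTAZ #2 (SE 0.32, FDR 0.012). The direct comparison gave the largest difference among the members, with PTGS2 13.5-fold higher with siTAZ #1 than with siTAZ #2 (log2 3.76, SE 0.33, FDR 0.0014), and this call held under all 16 alternative settings (FDR of 0.02 or less). Against siNTC the calls were less firm. The rise with siTAZ #1 had an FDR of 0.061 without siNTC replicate 1 (log2 1.66). The fall with siTAZ #2 had an FDR of 0.055 without siNTC replicate 2 (log2 -1.37), 0.078 without siTAZ #2 replicate 1 (log2 -1.66) and 0.06 without siTAZ #2 replicate 2 (log2 -1.90). PTGS2 is overlapped in the annotation by the antisense gene PACERR, which is not an entry of the table, and reads of PTGS2 and PACERR cannot be told apart where counting does not use strand.

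PLA2G4A and PTGS2 are neighbours on chromosome 1. They lie 148 kb apart on opposite strands with no other entry of the table between them, so that the enzyme that releases arachidonic acid and a cyclooxygenase that uses it are encoded side by side. With siTAZ #1 both rose, by 1.45 and 1.99 on the log2 scale. With siTAZ #2 PTGS2 fell by 1.76 while PLA2G4A was at -0.03.

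**Figure D2:**
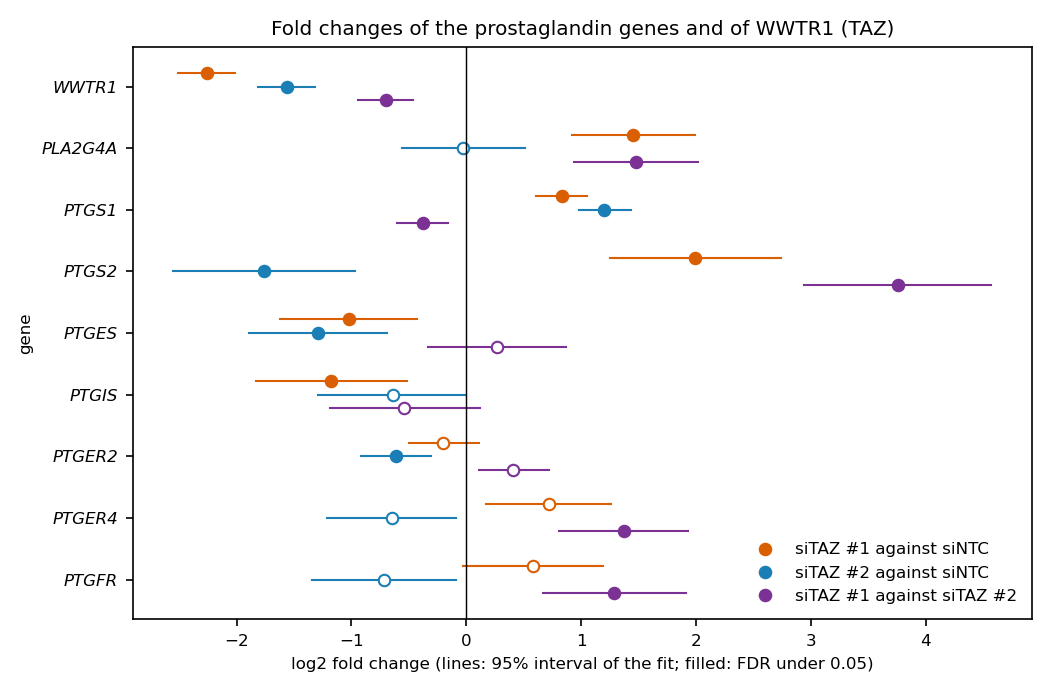
Log2 fold changes of WWTR1 and the 8 tested prostaglandin genes (horizontal axis) for siTAZ #1 against siNTC, siTAZ #2 against siNTC and siTAZ #1 against siTAZ #2. Points are the fitted values, lines their 95% intervals, and filled points have an FDR under 0.05. WWTR1, PTGES, PTGIS and PTGER2 lay left of 0 with both siRNAs, with PTGIS called with siTAZ #1 alone and PTGER2 with siTAZ #2 alone. PTGS1 lay right of 0 with both, and the intervals of PTGS2 against siNTC lay on opposite sides of 0.

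Of the synthases PTGES and PTGIS, PTGES fell with both siRNAs and PTGIS with siTAZ #1. PTGES (ENSG00000148344, chromosome 9, 132500610 to 132515321, minus strand), the inducible microsomal prostaglandin E synthase, was at 8.94 and 8.39 CPM in siNTC, 4.97 and 3.62 CPM with siTAZ #1, and 3.51 and 3.56 CPM with siTAZ #2. All 4 knockdown libraries were below both controls, and both siTAZ #2 libraries lay just below the lower siTAZ #1 library. PTGES fell by 1.02 on the log2 scale with siTAZ #1 (SE 0.24, FDR 0.035) and fell by 1.29 with siTAZ #2 (SE 0.25, FDR 0.013). The siRNAs did not differ by the test (log2 difference 0.27, SE 0.24, FDR 0.46), and the 95% interval of the difference ran from -0.33 to 0.87. Both calls depended on the settings. The fall with siTAZ #1 was lost under 8 of the 16, among them leaving out siNTC replicate 1 (FDR 0.16), siNTC replicate 2 (0.14), siTAZ #1 replicate 2 (0.12), siTAZ #2 replicate 1 (0.071) and siTAZ #2 replicate 2 (0.07). The fall with siTAZ #2 was lost without siNTC replicate 1 (0.079), siNTC replicate 2 (0.069), siTAZ #2 replicate 1 (0.076) and siTAZ #2 replicate 2 (0.073), with log2 fold changes between -1.36 and -1.27.

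PTGIS (ENSG00000124212, chromosome 20, 48120411 to 48184674, minus strand), the prostacyclin synthase, was at 4.31 and 4.04 CPM in siNTC, 1.81 and 1.87 CPM with siTAZ #1, and 2.80 and 2.54 CPM with siTAZ #2. The 3 groups did not overlap, with siTAZ #1 the lowest. PTGIS fell by 1.18 on the log2 scale with siTAZ #1 (SE 0.27, FDR 0.03). With siTAZ #2 its log2 fold change was -0.64 (SE 0.26, FDR 0.12). The siRNAs did not differ by the test (log2 difference -0.54, FDR 0.19), with an interval of -1.19 to 0.12. These values rest on 28 to 68 counts per library, and the call with siTAZ #1 was lost under 9 of the 16 settings, with each of the 6 libraries left out in turn among them (FDR 0.055 to 0.14).

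Of the receptors, PTGER2 was the highest and the one that passed the test against siNTC. PTGER2 (ENSG00000125384, chromosome 14, 52781023 to 52795316, plus strand), a prostaglandin E2 receptor coupled to adenylyl cyclase, was at 45.8 and 40.4 CPM in siNTC, 37.2 and 38.0 CPM with siTAZ #1, and 29.3 and 27.2 CPM with siTAZ #2. The siTAZ #2 libraries lay below all the others, and the siTAZ #1 libraries lay between, closer to the controls. PTGER2 fell by 0.61 on the log2 scale with siTAZ #2 (SE 0.12, FDR 0.017), and with siTAZ #1 its log2 fold change was -0.20 (SE 0.12, FDR 0.31). The difference between the siRNAs was 0.41 (SE 0.12, FDR 0.054), with an interval of 0.11 to 0.72. Over the alternative settings the FDR of this difference ran from 0.033, with DESeq2, to 0.6. The fall with siTAZ #2 was lost without siNTC replicate 1 (log2 -0.54, FDR 0.1), siNTC replicate 2 (log2 -0.72, FDR 0.059), siTAZ #2 replicate 1 (log2 -0.67, FDR 0.066) and siTAZ #2 replicate 2 (log2 -0.58, FDR 0.089).

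PTGER4 and PTGFR differed between the siRNAs without passing the test against siNTC with either. PTGER4 (ENSG00000171522, chromosome 5, 40680017 to 40693837, plus strand), the other prostaglandin E2 receptor that raises cAMP, was at 4.25 and 4.29 CPM in siNTC, 7.23 and 6.84 CPM with siTAZ #1, and 2.94 and 2.48 CPM with siTAZ #2. The siTAZ #1 libraries were above both controls and the siTAZ #2 libraries below both. Its log2 fold change was 0.72 with siTAZ #1 (SE 0.22, FDR 0.072) and -0.65 with siTAZ #2 (SE 0.23, FDR 0.083), and PTGER4 was 2.58-fold higher with siTAZ #1 than with siTAZ #2 (log2 1.37, SE 0.23, FDR 0.0084). Without siTAZ #2 replicate 2 that difference was 1.26 (FDR 0.058). The gene overlaps TTC33 on the opposite strand, which itself had log2 fold changes of 0.86 (FDR 0.078) and 1.25 (FDR 0.022) with siTAZ #1 and siTAZ #2. The strand setting of the counting is not given in the sources used here, so reads of PTGER4 and TTC33 in the shared stretch cannot be told apart.

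PTGFR (ENSG00000122420, chromosome 1, 78769568 to 79006386, plus strand), the receptor of prostaglandin F2 alpha, was at 10.8 and 9.66 CPM in siNTC, 12.4 and 18.0 CPM with siTAZ #1, and 6.87 and 5.56 CPM with siTAZ #2. The groups did not overlap, and the siTAZ #1 replicates stood further apart than those of the other groups. Its log2 fold change was 0.58 with siTAZ #1 (SE 0.25, FDR 0.16) and -0.72 with siTAZ #2 (SE 0.25, FDR 0.085). Compared directly, PTGFR was 2.45-fold higher with siTAZ #1 than with siTAZ #2 (log2 1.29, SE 0.25, FDR 0.014). That call was lost without siTAZ #2 replicate 1 (log2 1.46, FDR 0.056) or siTAZ #2 replicate 2 (log2 1.16, FDR 0.091), and by the exact test on 4 libraries (FDR 0.053). Against siNTC, the siTAZ #2 value passed under 6 alternatives, DESeq2 among them (FDR 0.044) and the fits without siTAZ #1 replicate 1 (FDR 0.017) or siTAZ #1 replicate 2 (FDR 0.022), and the siTAZ #1 value passed without siTAZ #1 replicate 1 (log2 0.82, FDR 0.017).

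HPGD (ENSG00000164120, chromosome 4, 175411326 to 175444305, minus strand), which inactivates prostaglandin E2 by oxidation, was barely detected. It had 0 and 1 counts in siNTC, 9 and 4 with siTAZ #1, and 5 and 3 with siTAZ #2. Each knockdown library had more counts than either control. Pooled over replicates, 1 of 32201679 counts came from HPGD in siNTC, or 0.0311 CPM with an exact 95% Poisson interval of 0.000786 to 0.173. The pooled level was 0.272 CPM with siTAZ #1 (13 counts, interval 0.145 to 0.466) and 0.214 with siTAZ #2 (8 counts, interval 0.0922 to 0.421). The ratio to siNTC was 8.77 with siTAZ #1 (exact interval 1.32 to 373) and 6.88 with siTAZ #2 (exact interval 0.922 to 305). These intervals cover counting error only and compare libraries rather than conditions.

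Levels of different genes were compared per length, as TMM-scaled CPM per kilobase of merged exons (FPKM). This measure reads low for genes with many alternative exons. In siNTC the order of mean FPKM was PTGS1 (27.4), PTGER2 (17.5), PTGES (4.58), PLA2G4A (2.03), PTGFR (1.77), PTGER4 (1.20), PTGS2 (0.939), PTGIS (0.75) and HPGD (0.0057). The ranges of PLA2G4A and PTGFR overlapped over the libraries, as did those of PTGS2 and PTGIS, and no other neighbours in that order overlapped. PTGS1 and PTGER2 kept the first and second places in all 3 groups. PTGS2 stood at place 7 in siNTC, at place 4 with siTAZ #1 (3.74 FPKM, 3.28 to 4.19 over libraries) and at place 8 with siTAZ #2 (0.277 FPKM, 0.255 to 0.297). PTGES stood at place 3 in siNTC and at place 6 with siTAZ #1 (2.27 FPKM), where its range overlapped those of PTGFR and PTGER4, and at place 4 with siTAZ #2 (1.87 FPKM). PTGS1 was above PTGS2 on this scale in every group.

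**Figure D3:**
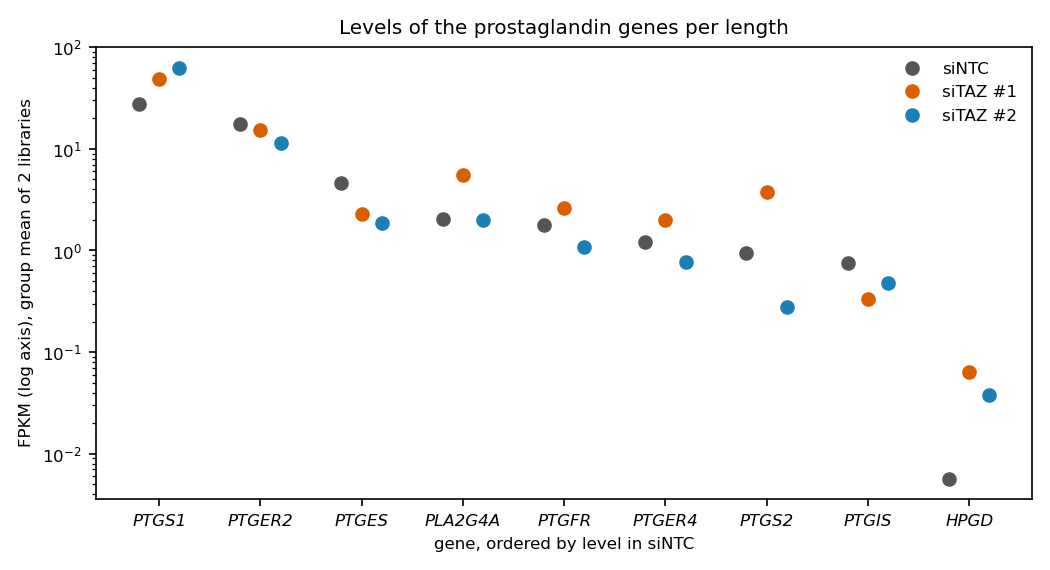
Mean FPKM of each prostaglandin gene in each group (log axis, 2 libraries per group), with genes ordered by their level in siNTC. PTGS1 and PTGER2 stood highest in all groups, HPGD stood lowest, and PTGS2 ranged from 0.277 to 3.74 FPKM between the siRNAs.

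The rest of the pathway was described from lists of other enzymes, receptors and transporters. All lists were chosen with earlier results of these data known, so the share of a list that was called is a description. Among 9 other phospholipases A2, 5 were tested, and 2 (40.0%) were called with siTAZ #1 and 1 (20.0%) with siTAZ #2, against 20.6% and 28.5% of all genes. With siTAZ #1, PLA2G15, a lysosomal phospholipase, was higher and PLA2G4C was lower (log2 -0.93, FDR 0.031), and with siTAZ #2 PLA2G15 was the 1 called. The mean level of PLA2G15 was 50.5 CPM in siNTC, 68.9 with siTAZ #1 and 122 with siTAZ #2, with log2 fold changes of 0.45 (FDR 0.042) and 1.27 (FDR 0.0014), and the first was lost under many settings, among them the exact test on 4 libraries (FDR 0.64), the fit of 4 libraries (FDR 0.1), no filter (FDR 0.072), and the loss of siNTC replicate 1 (FDR 0.16) or siNTC replicate 2 (FDR 0.23). The list's median log2 fold change was 0.40 with siTAZ #1 and 0.46 with siTAZ #2.

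Of 8 other prostanoid synthases, 7 were tested, and TBXAS1 and PTGDS were higher with both siRNAs. PTGDS had 7 and 6 counts in siNTC, and it passed the filter on low counts through the knockdown libraries. That filter favoured a rise for PTGDS. TBXAS1, which makes thromboxane A2 from the same prostaglandin H2, was at 9.64 and 8.20 CPM in siNTC, 35.0 and 37.1 CPM with siTAZ #1, and 34.8 and 43.6 CPM with siTAZ #2. All 4 knockdown libraries were far above both controls, and the siRNA groups overlapped. TBXAS1 rose by 2.01 on the log2 scale with siTAZ #1 (SE 0.17, FDR 0.0017) and by 2.13 with siTAZ #2 (SE 0.17, FDR 0.001), and the interval of the difference between the siRNAs ran from -0.52 to 0.28. Both TBXAS1 calls held under all alternative settings. PTGDS, a prostaglandin D synthase, was at 0.411 CPM in siNTC, 1.55 with siTAZ #1 and 2.16 with siTAZ #2 (log2 1.92, FDR 0.038, and 2.37, FDR 0.015), and both of its calls were lost when a control library was left out (FDR 0.084 to 0.18), and under other settings, such as the fit of 4 libraries with siTAZ #1 (FDR 0.079). In all, 3 of the 7 were higher and 1 was lower with siTAZ #1, the others being PTGES3 (log2 0.58, FDR 0.03) and AKR1C3 (log2 -0.88, FDR 0.02). With siTAZ #2 the count was again 3 higher and 1 lower, the others being PTGES2 (log2 0.57, FDR 0.021) and AKR1B1 (log2 -0.52, FDR 0.005). Each count is 57.1% of the list, against 20.6% of all genes with siTAZ #1 and 28.5% with siTAZ #2. PTGES2 and PTGES3, the other prostaglandin E synthases, were not called lower with either siRNA. With siTAZ #1 their log2 fold changes were -0.30 (FDR 0.15, 95% interval -0.61 to 0.0) and 0.58, so that PTGES2 had the same sign as PTGES. With siTAZ #2 they were 0.57 and 0.26 (FDR 0.19).

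None of the other prostanoid receptors passed the edgeR quasi-likelihood test, also none at an unadjusted p under 0.05 or by DESeq2, while the edgeR exact test on 4 libraries called 1, PTGER1, with siTAZ #2. Of 7 on the list, 6 were in the table and 4 were tested, PTGER1, PTGIR, TBXA2R and PTGFRN (a protein that binds PTGFR), all at mean levels under 5 CPM in every group. Their log2 fold changes ran from -0.24 to 1.41 with siTAZ #1 and from 0.21 to 1.36 with siTAZ #2. PTGDR, the gene next to PTGER2 on chromosome 14, had 12 counts over the 6 libraries. Of 6 genes of prostanoid transport and breakdown, ABCC4, an exporter of prostaglandins and cyclic nucleotides, was higher with both siRNAs. ZADH2, a prostaglandin reductase, was lower with both. That is 2 of 6 (33.3%) with each siRNA, against 20.6% of all genes with siTAZ #1 and 28.5% with siTAZ #2. ABCC4 was at 177 CPM in siNTC, 324 with siTAZ #1 and 453 with siTAZ #2, with log2 fold changes of 0.87 (FDR 0.0021) and 1.35 (FDR 0.00063). ZADH2 was at 43.9, 24.6 and 32.5 CPM, with log2 fold changes of -0.84 (FDR 0.0068) and -0.44 (FDR 0.038). Both ABCC4 calls held under all alternative settings, while those of ZADH2 were lost without siNTC replicate 1 (FDR 0.067 and 0.16) or siNTC replicate 2 (FDR 0.066 and 0.15), and under other settings, such as the exact test on 4 libraries with siTAZ #1 (FDR 0.18). The importer SLCO2A1 was under 1 CPM on average in every group.

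**Figure D4:**
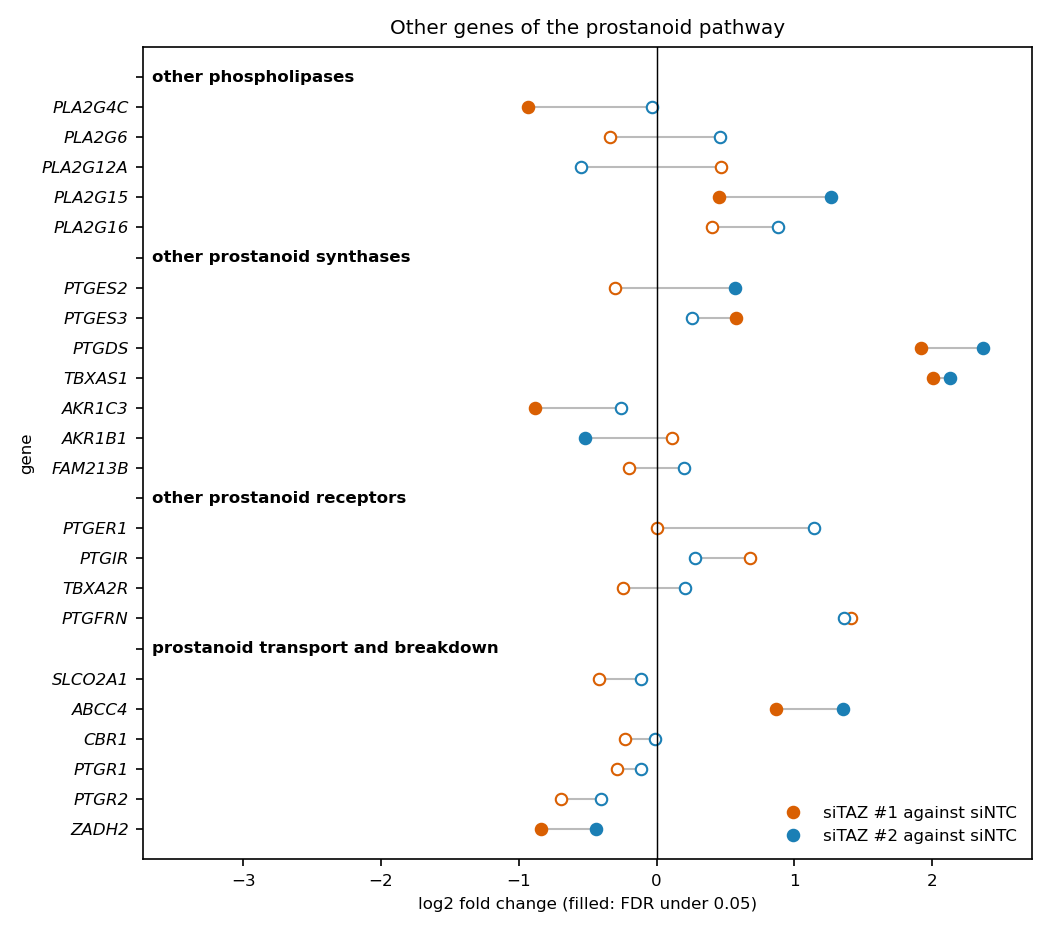
Log2 fold changes against siNTC (horizontal axis) of the other tested phospholipases, prostanoid synthases, prostanoid receptors, and transport and breakdown genes, with filled points at an FDR under 0.05. TBXAS1, PTGDS, ABCC4 and PLA2G15 lay right of 0 with both siRNAs, ZADH2 lay left of 0 with both, and no receptor was called.

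The cAMP machinery downstream of PTGER2 and PTGER4 was described for 24 tested genes of 29. With siTAZ #1, 4 were higher and 2 lower, and with siTAZ #2, 2 were higher and 8 lower, with median log2 fold changes of 0.07 and -0.19. That is 25.0% of the list with siTAZ #1, near the 20.6% of all genes, and 41.7% with siTAZ #2, against 28.5%. The list also holds phosphodiesterase genes, whose products break cAMP down, so its counts give no direction for cAMP. Among the 8 lower with siTAZ #2 were PDE4B (log2 -0.86, FDR 0.023), PDE7A (log2 -0.97, FDR 0.011) and PDE7B (log2 -2.55, FDR 0.002). Among the 4 higher with siTAZ #1 was PDE4A (log2 0.55, FDR 0.038). PRKACA, a catalytic subunit of protein kinase A, was at 193 CPM in siNTC, 136 with siTAZ #1 and 81.7 with siTAZ #2 (log2 -0.51, FDR 0.017, and -1.24, FDR 0.00094). The regulatory subunit gene PRKAR2A was at 35.5, 47.2 and 61.1 CPM (log2 0.41, FDR 0.049, and 0.78, FDR 0.0052). The adenylyl cyclase gene ADCY3 was at 55.5, 109 and 80.4 CPM (log2 0.98, FDR 0.004, and 0.53, FDR 0.018). Another adenylyl cyclase gene, ADCY8, had 3 pooled counts with siTAZ #2 against 25 in siNTC and 40 with siTAZ #1, for a ratio of 0.103 to siNTC (exact 95% interval 0.0199 to 0.338, which covers counting error only). Without siNTC replicate 1 the calls of PRKACA with siTAZ #1 (FDR 0.11), of ADCY3 with both (FDR 0.051 and 0.13) and of PRKAR2A with both (FDR 0.23 and 0.056) were lost, and without siNTC replicate 2 those of PRKACA with siTAZ #1 (FDR 0.11), of ADCY3 with siTAZ #2 (FDR 0.068) and of PRKAR2A with both (FDR 0.2 and 0.053). The exact test on 4 libraries also lost PRKACA (FDR 0.38) and PRKAR2A (FDR 0.7) with siTAZ #1, and the call of PRKAR2A with siTAZ #1 was lost as well with RLE scaling (FDR 0.05), upper-quartile scaling (FDR 0.062), no filter (FDR 0.1) and the fit of 4 libraries (FDR 0.093), among other settings. Direct comparison called 12 of the 24, with 10 higher and 2 lower with siTAZ #1 than with siTAZ #2. Among all genes tested, 28.6% were called in this comparison (15.2% higher and 13.4% lower with siTAZ #1).

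Of 9 genes that cAMP induces, 3 were higher and 1 lower with siTAZ #1, and 1 was higher and 1 lower with siTAZ #2. These were 44.4% and 22.2% of the list, against 20.6% and 28.5% of all genes. NR4A1, an orphan nuclear receptor of the immediate early class, was at 5.66 CPM in siNTC, 17.0 with siTAZ #1 and 11.5 with siTAZ #2 (log2 1.59, FDR 0.004, and 1.02, FDR 0.011). Its rise with siTAZ #2 was lost with any siNTC or siTAZ #2 library left out (FDR 0.055 to 0.081), and its rise with siTAZ #1 was at the threshold without siNTC replicate 2 (FDR 0.05). The others called with siTAZ #1 were NR4A2 (log2 1.28, FDR 0.0079), CREM (log2 0.70, FDR 0.046) and SIK1 (log2 -2.17, FDR 0.012), and with siTAZ #2 it was DUSP1 (log2 -1.12, FDR 0.0063).

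NF-kB target genes, the cytokine-induced class to which PTGS2 also belongs, were set beside PTGS2. All 18 on the list were tested. With siTAZ #1, 12 were higher and 0 lower (0 lower also at an unadjusted p under 0.05, by DESeq2 and by the exact test), with a median log2 fold change of 0.93, while with siTAZ #2, 4 were higher and 8 lower, with a median of -0.21. In each comparison that is 66.7% of the list, against 20.6% and 28.5% of all genes. This list was chosen with earlier results of these data known, so its shares are a description and not independent support. The interleukin gene IL1B showed the pattern of PTGS2 on a larger scale. It was at 0.571 and 0.947 CPM in siNTC, 11.2 and 9.75 CPM with siTAZ #1, and 0.0935 and 0.0604 CPM with siTAZ #2, from 9 and 15, 173 and 318, and 2 and 1 counts. IL1B rose by 3.77 on the log2 scale with siTAZ #1 (FDR 0.0021), its pooled rate with siTAZ #2 was 0.107 of that in siNTC (exact 95% interval 0.0207 to 0.354), and its rate with siTAZ #1 was 128 times that with siTAZ #2 (exact interval 43.7 to 625), where the intervals cover counting error only and take reads as independent. The chemokine gene CXCL1 was at 14.3 CPM in siNTC, 55.5 with siTAZ #1 and 3.37 with siTAZ #2 (log2 1.95, FDR 0.0018, and -2.09, FDR 0.0012). CXCL2 was at 3.48, 7.94 and 0.764 CPM (log2 1.20, FDR 0.068, and -2.20, FDR 0.013). IL8 was at 10.2, 103 and 10.4 CPM (log2 3.34, FDR 0.0024, and 0.02, FDR 0.97) and IL1A at 0.411, 4.93 and 0.325 CPM (log2 3.56, FDR 0.035, and -0.42, FDR 0.79). Not all of the list divided in this way, since CCL2 (log2 1.28, FDR 0.0037, and 0.94, FDR 0.0064), LIF (log2 1.01, FDR 0.0023, and 0.45, FDR 0.018) and ICAM1 (log2 0.46, FDR 0.017, and 0.40, FDR 0.019) were higher with both siRNAs. Both calls of IL1B and CXCL1 held under all alternative settings. IL1B, IL1A (4 and 9 counts in siNTC) and CSF2 (8 and 1) passed the filter on low counts through the siTAZ #1 libraries. For these genes the filter favoured a rise with siTAZ #1. Without siNTC replicate 2, calls against siNTC were lost for IL1A with siTAZ #1 (FDR 0.15), CXCL2 with siTAZ #2 (0.058), CCL2 with both (0.054 and 0.065), LIF with siTAZ #2 (0.061) and ICAM1 with both (0.1 each). Without siNTC replicate 1 they were lost for IL1A with siTAZ #1 (0.2), CXCL2 with siTAZ #2 (0.071), CCL2 with siTAZ #2 (0.055), LIF with siTAZ #2 (0.13) and ICAM1 with both (0.14 each), and some of these were lost under other settings too, such as ICAM1 with siTAZ #1 by the exact test (0.55). Between the siRNAs, 12 of the 18 (66.7%, against 28.6% of all genes in either direction) were higher with siTAZ #1 and 0 were lower (also 0 at an unadjusted p under 0.05, by DESeq2 and by the exact test).

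**Figure D5:**
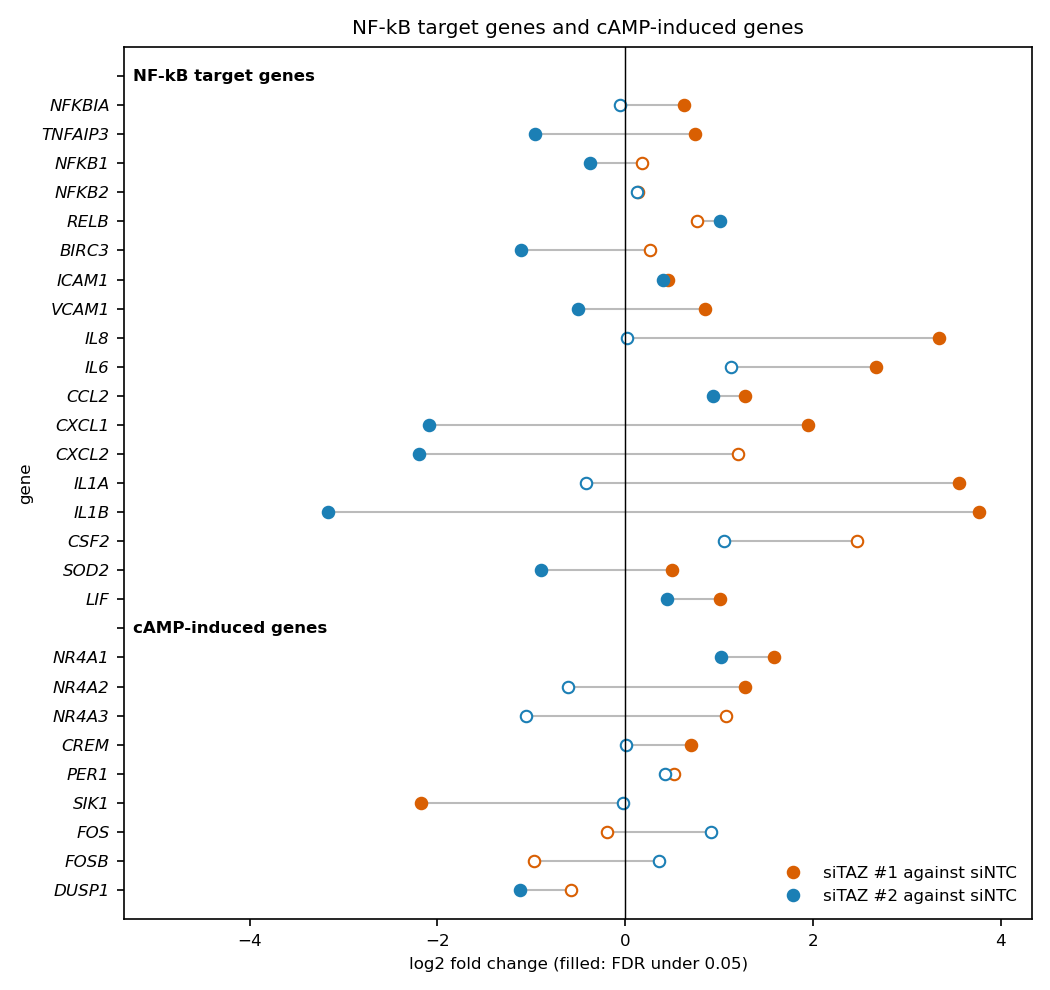
Log2 fold changes against siNTC (horizontal axis) of the 18 NF-kB target genes and 9 cAMP-induced genes, with filled points at an FDR under 0.05 and a line joining the siRNAs. All 18 NF-kB target genes lay right of 0 with siTAZ #1, and 10 of them lay left of 0 with siTAZ #2, with IL1B and CXCL1 spanning the widest ranges of those called with both.

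For the members called with both siRNAs, the genes with the most similar pattern over the 6 libraries were found from log2 CPM centred on the siNTC mean. PTGS2 was closest to CXCL1 (root-mean-square difference 0.30), SERPINB2 (0.37) and IL1R1 (0.40). IL1R1, the interleukin-1 receptor, was at 124 CPM in siNTC, 527 with siTAZ #1 and 25.1 with siTAZ #2, with log2 fold changes of 2.08 (FDR 0.00062) and -2.31 (FDR 0.00037). SERPINB2, a plasminogen activator inhibitor, was at 5.5, 19.4 and 1.14 CPM. PTGS1 was closest to JUP (0.03), SDF4 (0.06) and FAM20C (0.06), and PTGES was close to EMG1 (0.08) and C17orf76-AS1 (0.10). These are among the smallest differences over all genes tested and are given as a description, since all patterns come from the same 6 libraries.

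The members' neighbours on the chromosome are given for comparison, with log2 fold changes for siTAZ #1 first and siTAZ #2 second. PTGES lies between PRRX2 (15.7 kb away, log2 0.15, FDR 0.69, and -1.02, FDR 0.027) and TOR1B (50.1 kb away), which was higher with both siRNAs (log2 1.44, FDR 0.0038, and 1.13, FDR 0.0052). PTGS1 lies 39.2 kb from MRRF (log2 -0.33, FDR 0.23, and -0.84, FDR 0.016). Next to PTGER2 on the other side from PTGDR lies TXNDC16 (102 kb away), which was lower with siTAZ #1 (log2 -2.35, FDR 0.0097) and at 0.29 (FDR 0.55) with siTAZ #2. PTGIS lies 64.8 kb from B4GALT5 (log2 0.25, FDR 0.091, and 0.38, FDR 0.022). Apart from PLA2G4A and PTGS2, no members were adjacent to each other.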

How the data were processed

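RNA-seq libraries of siRNA-transfected HFL-1 cells were sequenced on the Ion Proton, and, per the authors' notes and methods, alignment to hg19 used TMAP and counting used HTSeq 0.6.1. The deposited values are raw counts per gene symbol, not normalized. The strand setting is not given in the sources used here. Of 23368 entries, 13 with a date in place of a symbol were left out (0.0458% to 0.0506% of counts). Of the rest, 21478 had a position in GENCODE on GRCh37, 1922 through a synonym.

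Counts of all 6 libraries were filtered with filterByExpr, scaled by TMM and tested together by quasi-likelihood F tests (edgeR 4.0.16, R 4.3.3) (Benjamini-Hochberg over 14053 genes, FDR threshold 0.05, common dispersion 0.0807). SEs were taken from the F statistic. The pipeline was also run on simulated counts of lower dispersion than these libraries, so that run does not show how well it recovers changes here. Alternatives were other scalings and filters, DESeq2 1.42.0, the edgeR exact test, a fit of 4 libraries, a replicate block, and leaving out genes or libraries. The members, the gene lists and the tests were chosen with earlier results of these data known. Genes of the lists were named when called with both siRNAs in the same direction (up to 12 by size) or when most different between the siRNAs (up to 6), and names beyond that, given where a count was small, were chosen after their values were seen. Neighbouring genes and the 3 nearest patterns were also named, except for 1 gene that is not reported here. Replicate numbers did not pair the libraries.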

Additional observations from a re-analysis of the deposited data

Results flagged for a closer look

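Genes named by the rule whose effects differed between the siRNAs by the direct edgeR quasi-likelihood test are given here as log2 differences, siTAZ #1 minus siTAZ #2. Among the prostaglandin genes these were PTGS2 (3.76, FDR 0.0014), PLA2G4A (1.48, FDR 0.0058), PTGER4 (1.37, FDR 0.0084), PTGFR (1.29, FDR 0.014) and PTGS1 (-0.38, FDR 0.026). The targeted gene WWTR1 also differed (-0.70, FDR 0.005), being lower with siTAZ #1. The exact test on 4 libraries lost the calls of PTGS1 (FDR 0.55), PTGFR (FDR 0.053) and WWTR1 (FDR 0.27). PTGS1 and WWTR1 moved in the same direction with both siRNAs, PTGS2, PTGER4 and PTGFR had fold changes of opposite sign, and PLA2G4A moved with siTAZ #1 alone.

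Of the lists, only the genes named by the rule are given. More genes passed the same test, for example 12 of 24 in the cAMP machinery and 12 of 18 NF-kB target genes. Among all genes tested, 28.6% passed that test. In the prostanoid lists the named genes were ABCC4 (-0.48, FDR 0.0079), PLA2G15 (-0.82, FDR 0.0048) and ZADH2 (-0.40, FDR 0.048). The exact test on 4 libraries lost all of these calls (FDR 0.38, 0.065 and 0.62). That of ZADH2 was also lost in the fit of 4 libraries (FDR 0.11), with the replicate block (FDR 0.093) and with no filter (FDR 0.094), among other settings. In the cAMP machinery they were PRKACA (0.73, FDR 0.0039), ADCY3 (0.45, FDR 0.031) and ADCY8 (3.41, FDR 0.033). ADCY8 had 3 pooled counts with siTAZ #2, so that its fitted value depends on the prior count. The exact test lost PRKACA (FDR 0.093) and ADCY3 (FDR 0.43). ADCY3 was also lost in the fit of 4 libraries (FDR 0.053) and with the replicate block (FDR 0.073). ADCY8 was lost with some libraries left out, either siTAZ #2 replicate among them (3.76 and 3.19). Among the NF-kB target genes they were IL1B (6.94, FDR 0.00072, likewise from 3 pooled counts with siTAZ #2), CXCL1 (4.04, FDR 0.0005), IL1A (3.99, FDR 0.02), CXCL2 (3.39, FDR 0.0032), IL8 (3.32, FDR 0.0017) and LIF (0.56, FDR 0.0087). The call of LIF was lost by the exact test (FDR 0.23).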

How the results depend on the processing

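Scaling by RLE, upper quartile or library totals, other filters on low counts, DESeq2 and leaving out the chromosome 22, X and Y genes that siTAZ #1 replicate 2 nearly lacks kept the number of members called within 1.5 times in each comparison. With siTAZ #1 against siNTC, 5 members were called, against 2 by the exact test on 4 libraries, 3 in the fit of 4 libraries and 1 to 5 with a library left out. With siTAZ #2, 4 were called, against 1 to 5 with a library left out. Between the siRNAs, 5 were called, against 3 by the exact test and 2 to 6 with a library left out. Of the 73 tested list genes, 30 were called with siTAZ #1 (16 by the exact test, 8 to 33 with a library left out) and 31 with siTAZ #2 (11 to 37 with a library left out), and the lowest counts came without a siNTC library. In the main fit the share of list genes called was 41.1% with siTAZ #1 and 42.5% with siTAZ #2, against 20.6% and 28.5% of all genes. The lists were chosen with earlier results known, which limits this comparison. Shares over all genes under the other settings are not given here. Over the members, 181 of the values called kept their call and 43 lost it, and 11 values not called passed the threshold. With 2 libraries per group, leaving out 1 leaves a lone sample, whose spread is taken from the other groups.

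Replicate numbers did not pair the libraries, since the deviations of same-numbered libraries correlated at 0 (siNTC with siTAZ #1), 0.01 (siNTC with siTAZ #2) and -0.11 (siTAZ #1 with siTAZ #2, or -0.27 without the genes from RANGAP1 on). With the replicate block, 3 members were called with siTAZ #1, 4 with siTAZ #2 and 4 between the siRNAs, and 21 and 24 list genes. A crossed block between the siRNAs, chosen after seeing the data, called 5 members.

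The direction reversed for 5 values near 0, none of them called, and the cause was not tested. PLA2G4A with siTAZ #2 was at 0.02 with library totals and at -0.24 to 0.19 with a library left out, the highest without siNTC replicate 1. TBXAS1 between the siRNAs was at 0.06 without siTAZ #2 replicate 2 (lowest -0.27). IL1A with siTAZ #2 was at 0.25 without siNTC replicate 2 and 0.55 without siTAZ #2 replicate 1 (lowest -3.0, without siTAZ #2 replicate 2, which leaves 1 count), and ADCY8 with siTAZ #1 at -0.35 without siNTC replicate 2 and -0.23 without siTAZ #1 replicate 1 (highest 1.01). IL8 with siTAZ #2 was at -0.0037 without a filter, -0.05 without siNTC replicate 2 and -0.01 without siTAZ #2 replicate 2 (highest 0.06). Depth limited HPGD, with at most 9 counts in a library.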
